A study of Mus musculus with 36 samples.

Results

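The 7 C-type lectin receptor genes described here are Clec4d, Clec4e, Clec4n, Clec4a2, Clec5a, Clec7a and Clec12a, 7 of the 54532 genes in the count table, and each was followed in all 36 RNA-seq libraries. They were chosen by gene name, after Clec4d had been seen to be higher with CCM in cells without LPS. CCM (Core Circadian Modulator) is a small molecule that binds the PASB domain of the clock transcription factor BMAL1. The libraries came from bone marrow-derived macrophages (BMDMs) of female C57BL/6 mice, grown with the macrophage growth factor MCSF. KO cells carried LysM-Cre;Bmal1 flox/flox (n = 6 replicates), in which Cre is driven by the promoter of the lysozyme gene of myeloid cells, and WT cells came from Bmal1 flox/flox littermates without Cre (n = 3), so that every animal carried the floxed alleles and Cre separated the genotypes together with its target. Cells of each genotype were treated for 6 h with DMSO vehicle, 100 µM CCM, 100 nM lipopolysaccharide (LPS) or LPS with CCM. The study's methods name DMSO for the vehicle, CCM and LPS treatments and do not state it for LPS with CCM.

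C-type lectin receptors are transmembrane proteins with which myeloid cells bind carbohydrates and glycolipids of fungi and mycobacteria, and also products of damaged cells. Activating members signal through an ITAM, a tyrosine motif carried by the receptor or by the adaptors FcRγ (Fcer1g) or DAP12 (Tyrobp), to the kinase SYK and then the CARD9, BCL10 and MALT1 complex, which activates NF-κB. Inhibitory members carry an ITIM, which recruits phosphatases such as SHP-1 (Ptpn6). LPS is sensed through the Toll-like receptor TLR4, and Clec4e is known as a gene that macrophages induce after such a stimulus.

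All 7 genes lie on mouse chromosome 6 (mm10, GRCm38). Clec4a2 (ENSMUSG00000030148, 123106428 to 123143999), Clec4n (ENSMUSG00000023349, 123229843 to 123247021), Clec4d (ENSMUSG00000030144, 123262111 to 123275265) and Clec4e (ENSMUSG00000030142, 123281789 to 123289870) form 1 cluster. In it 15089 bases separate Clec4n from Clec4d and 6523 separate Clec4d from Clec4e, with no annotated protein-coding gene between, and Clec4e is read from the opposite strand to the other 3. Clec12a (ENSMUSG00000053063, 129342691 to 129365303) and Clec7a (ENSMUSG00000079293, 129461591 to 129472779) lie 96287 bases apart with 4 protein-coding genes between them. Clec5a (ENSMUSG00000029915, 40574894 to 40585821) stands alone. The annotation in the table calls Clec7a a polymorphic pseudogene and the others protein-coding. Of the 50-base words in the annotated transcripts, 6.69% of those of Clec4a2 were shared with other genes, most with its neighbouring paralog Clec4a4, so part of the Clec4a2 count is uncertain. The shared part was 0.686% for Clec4n, 0.402% for Clec12a and 0 for the other 4 genes. Clec4a2 was also the 1 gene of the 7 with an overlapping annotated gene, Gm44132, which had 0 to 3 counts per library.

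Promoter sequences from RefSeq (GRCm38.p6) were matched by symbol for 6 of the 7 genes, all but Clec4n. Printed are those of 3 members, Clec4e as the gene that rose most with LPS, Clec4d as the gene behind the choice of the family and Clec7a as the gene that fell with LPS. Each line holds the 250 bases before the annotated start, 5′ to 3′ on the strand of the gene, in lower case, with motif matches in capitals. The regions are chr6:123289872-123290121 (minus strand) for Clec4e, chr6:123261857-123262106 (plus strand) for Clec4d and chr6:129472780-129473029 (minus strand) for Clec7a.
Clec4e promoter: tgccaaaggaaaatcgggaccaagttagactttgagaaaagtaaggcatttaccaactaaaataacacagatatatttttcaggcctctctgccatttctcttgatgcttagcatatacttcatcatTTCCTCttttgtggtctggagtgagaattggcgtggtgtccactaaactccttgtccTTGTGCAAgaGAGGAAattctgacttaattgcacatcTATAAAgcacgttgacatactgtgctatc
Clec4d promoter: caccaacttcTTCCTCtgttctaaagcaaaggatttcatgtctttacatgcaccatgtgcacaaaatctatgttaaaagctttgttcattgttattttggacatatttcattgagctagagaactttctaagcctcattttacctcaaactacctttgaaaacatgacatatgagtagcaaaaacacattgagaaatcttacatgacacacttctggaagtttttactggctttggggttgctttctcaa
Clec7a promoter: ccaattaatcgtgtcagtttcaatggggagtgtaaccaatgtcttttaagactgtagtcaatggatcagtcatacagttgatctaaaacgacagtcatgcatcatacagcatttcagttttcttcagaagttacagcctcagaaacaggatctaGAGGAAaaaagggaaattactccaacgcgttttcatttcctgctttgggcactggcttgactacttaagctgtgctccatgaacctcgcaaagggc
The capitals mark ETS motifs (GAGGAA, the core bound by PU.1 and related factors), a C/EBP motif (TTGCNNAA) and a TATA box (TATAAA), searched on both strands. The ETS motif stood in 5 of the 6 promoters, all but that of Clec4a2, and in 23.3% of 32851 mouse promoters of the same length. The Clec4e promoter held the TATA box 29 bases before the start, the C/EBP motif at 66 bases, and ETS motifs at 56 and 123 bases. Among the 6 windows, the TATA box letters were also in those of Clec4a2 and Clec5a, at 161 and 209 bases. The C/EBP motif was also in that of Clec12a. Of all promoters, 12.4% held a TATA box and 9.56% the C/EBP motif. The E-box CACGTG, to which BMAL1 and CLOCK bind, was in none of the 6 windows and in 6.02% of all promoters. The antioxidant response element TGACNNNGC (10.2% of all promoters) and the ROR element AGGTCA (14%) were in none of the 6 either. The NF-κB motif, searched as its first letters GGGNNNTTC (11.8%), was in that of Clec5a alone. Clec12a held an AP-1 motif (TGANTCA, 6.75% of all promoters) and a D-box (TTATGTAA, 0.819%). These matches describe letters in the windows and do not show binding. The windows of Clec4a2 (123122440 to 123122689) and Clec12a (129349994 to 129350243) lie inside the gene spans given above, where RefSeq places a start. They do not cover the outer starts of those spans.

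Library totals ranged from 13469262 to 28288923 counts. All 10 macrophage markers were above 0 in every library, and dendritic cell, B cell and T cell marker sums stayed at or below 33.7 CPM (read counts scaled to a common library size by total and TMM factor), against 12413 CPM or more for the macrophage markers. Monocyte markers summed to 311 to 916 CPM, fibroblast markers to 295 to 1659 and erythroid markers to at most 11.4. The Bmal1 gene (Arntl) had 7.27 to 12.9 CPM in the 12 WT libraries and 2.13 to 10.7 in the 24 KO libraries, so the ranges overlapped. KO replicate 6 stood apart in several values. Its summed level of 12 neutrophil markers, the highest of the KO libraries in all treatments but vehicle, was 1289 to 2458 CPM, against 547 to 1837 in the other KO libraries and 519 to 1222 in WT, with at most 1 of the 12 at 0 in a library. Elane and Mpo, enzymes of early granulocytes, were at 9.86 to 26.0 and 13.3 to 35.7 CPM in it and at 1.18 to 18.2 and 2.07 to 31.9 in the other 32 libraries. The highest S100a8, S100a9, Camp, Lcn2, Retnlg and Ly6g values of KO replicate 6 were also above those of the other 32. Its highest Ltf (110 against 171 CPM), Ngp (190 against 274), Mmp8 (45.9 against 82.8) and Cxcr2 (2.17 against 5.52) values were below theirs. Among the macrophage markers, Adgre1 (F4/80) was at 270.3 to 982 CPM and Csf1r, the receptor for MCSF, at 1296 to 1519 CPM in it, toward the lower end of the 676 to 2513 and 1464 to 2302 CPM of the other 32 libraries, while Cd68 at 1046 to 1481 CPM lay at or above the upper part of their 588 to 1207. Of the KO libraries it had the highest Clec12a in all 4 treatments and the highest Clec4d in all but LPS with CCM. For several of the members, results in KO are also given without it. In bulk RNA, fewer cells of a type and less RNA per cell cannot be told apart.

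With vehicle, levels per unit length (RPKM, CPM per kilobase of gene length) fell into 4 tiers in WT. Clec7a, the β-glucan receptor Dectin-1, stood at 348 to 372 RPKM and Clec4d, the receptor MCL that pairs with Mincle, at 329 to 391, and these ranges overlapped. Clec12a, an inhibitory receptor for uric acid crystals, had 31.8 to 45.2 RPKM, Clec4a2, the inhibitory receptor DCIR, 27.8 to 34.2, and Clec4n, the mannan receptor Dectin-2, 21.2 to 28.9, each overlapping its neighbour. Clec5a, which signals through DAP12, lay lower at 10.5 to 12.6 RPKM. Clec4e, which encodes Mincle, a receptor for mycobacterial cord factor, was lowest at 1.88 to 2.72 RPKM. With LPS the order became Clec4d (781 to 857 RPKM), Clec4e (537 to 629) and Clec7a (131 to 139), none overlapping, then Clec5a (66.9 to 74.3) and Clec12a (69.6 to 73.2), which overlapped, and last Clec4n (27.6 to 34.7) and Clec4a2 (mean 28.5), which overlapped too. The 7 genes together summed to 819.5 ± 36.3 RPKM with vehicle and 1731 ± 88.3 with LPS (SD, n = 3). Clec4e made up 0.270% of that sum with vehicle and 33.6% with LPS, while Clec7a went from 43.8% to 7.77%. The share of Clec4d was 43.0% and 46.9%. The order and these shares depend on the gene length used, 4965 bases for Clec4e and 1599 for Clec4d. In mean CPM of WT with LPS, Clec4e (2889) lay above Clec4d (1298).

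**Figure D1:**
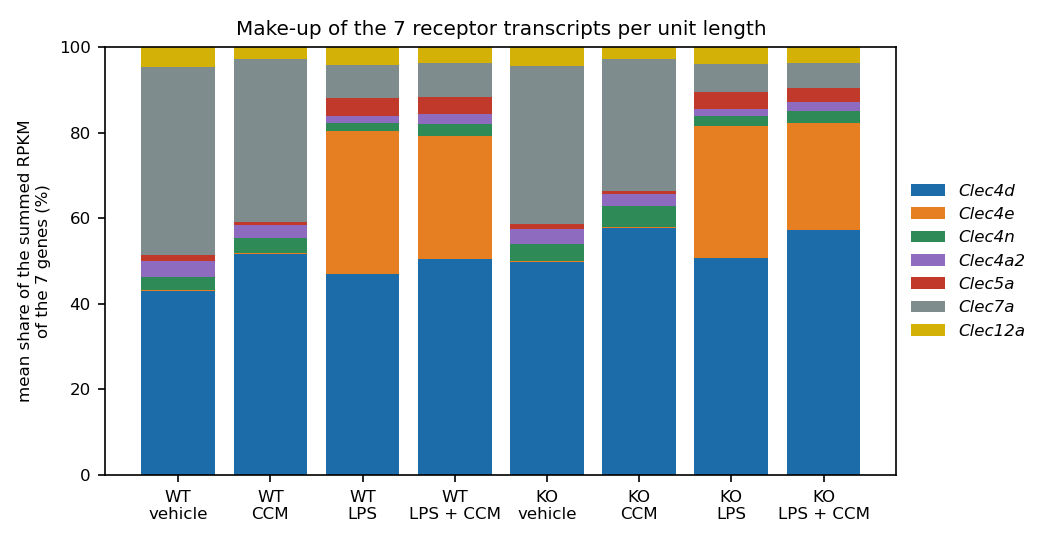
Stacked bars of the mean share of each gene in the summed RPKM of the 7 genes (%, vertical axis, from 0), for WT (n = 3) and KO (n = 6) libraries in each treatment on the horizontal axis. Clec4d and Clec7a fill most of the bars without LPS, and Clec4e takes 33.6% of the WT bar and 31.0% of the KO bar with LPS.

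The LPS response was read by comparing LPS with vehicle within each genotype by edgeR's quasi-likelihood test, and a gene is called where its p, adjusted over all tested genes by the Benjamini-Hochberg method, is at most 0.05. Log2 fold changes are given ± standard error, and CPM and RPKM values ± SD. In WT 6 of the 7 members were called, 5 higher and 1 lower, where 63.0% of the 14501 genes tested were called, 30.6% higher and 32.4% lower. In KO 5 of the 7 were called, 4 higher and 1 lower, where 47.1% of 13648 genes were called, 22.4% higher and 24.7% lower. The CPM of the groups did not overlap for 5 of the 7 in both genotypes (Clec4d, Clec4e, Clec5a, Clec7a and Clec12a), and for 68.9% of all genes in WT and 30.6% in KO. The vehicle libraries were also part of the comparison of CCM with vehicle through which Clec4d drew attention to the family.

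Clec4e rose most. In WT it went from 10.1, 9.36 and 13.5 CPM with vehicle to 3122, 2877 and 2668 with LPS, a log2 fold change of 8.03 ± 0.153 (edgeR adjusted p = 5.93e-11), the 59th highest of the 14501 genes. In KO the lowest, median and highest libraries were at 8.30, 13.5 and 27.9 CPM with vehicle and at 2065, 2912 and 3348 with LPS, a log2 fold change of 7.60 ± 0.332 (edgeR adjusted p = 8.49e-10). Every LPS library lay above every vehicle library in both genotypes. Clec5a went from 42.0, 48.5 and 40.2 to 284.3, 285.2 and 257 CPM in WT, with a log2 fold change of 2.67 ± 0.081 (edgeR adjusted p = 1.46e-09). In KO it went from a median of 43.5 CPM (39.4 to 46.3) to 279 (193 to 315), a log2 fold change of 2.63 ± 0.107 (edgeR adjusted p = 4.70e-10). Again the groups did not overlap, and KO replicate 6 was the lowest library in both.

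Clec4d and Clec12a rose by less. In WT, Clec4d stood at 625, 527 and 542 CPM with vehicle and at 1369.8, 1275 and 1249 with LPS, a log2 fold change of 1.21 ± 0.075 (edgeR adjusted p = 3.14e-07). Its KO libraries had a lowest, median and highest level of 577, 647 and 1115 CPM with vehicle and of 1310.2, 1359 and 2261 with LPS, a log2 fold change of 1.10 ± 0.205 (edgeR adjusted p = 0.00057). All 6 same-numbered pairs were higher with LPS, the groups did not overlap, and without replicate 6 the log2 fold change was 1.12. Clec12a had 249.9, 222 and 176 CPM in WT with vehicle and 398, 405 and 385 with LPS, a log2 fold change of 0.88 ± 0.105 (edgeR adjusted p = 4.30e-05). In KO the medians were 197 CPM (177 to 305) and 398 (364 to 545), a log2 fold change of 0.96 ± 0.163 (edgeR adjusted p = 0.000275), and 0.99 without replicate 6. The neutrophil marker sum moved with these genes, from a range of 766 to 827 CPM with vehicle to one of 1196 to 1222 with LPS in WT and from a range of 685 to 1298 to one of 1120.2 to 2458 in KO. Its part in the result was not tested. The list holds Lcn2, a gene known to be induced by LPS in macrophages.

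Clec7a was the 1 member that fell. Its WT libraries had 936, 917 and 981 CPM with vehicle and 350.5, 346 and 366 with LPS, a log2 fold change of -1.41 ± 0.058 (edgeR adjusted p = 1.34e-08). In KO the lowest, median and highest values were 634, 853 and 970.0 CPM with vehicle and 271, 325 and 361 with LPS, a log2 fold change of -1.40 ± 0.116 (edgeR adjusted p = 3.78e-07). The groups did not overlap in either genotype.

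Clec4n and Clec4a2 changed little with LPS. Clec4n went from 30.5, 30.1 and 41.0 CPM to 45.9, 49.3 and 39.2 in WT, overlapping groups with 2 of 3 pairs higher, and a log2 fold change of 0.40 ± 0.132 (edgeR adjusted p = 0.0229). The call rested on single libraries and on the scaling. Without LPS replicate 1 or 2 or vehicle replicate 1 or 2 the adjusted p was 0.0618, 0.0889, 0.0557 and 0.0666, with all 36 libraries in 1 fit it was 0.263, and with libraries scaled by total counts alone the log2 fold change was -0.01. In KO Clec4n had medians of 50.5 CPM (27.1 to 68.3) and 58.7 (42.9 to 90.4), and its log2 fold change of 0.28 (95% interval -0.22 to 0.79, edgeR adjusted p = 0.344) became a call once replicate number was a block (log2 fold change 0.29, edgeR adjusted p = 0.00238), with 6 of 6 pairs higher, but it was -0.11 under total counts alone. Clec4a2 in WT had 97.4, 100.0 and 81.2 CPM with vehicle and 81.7, 87.8 and 80.6 with LPS, a log2 fold change of -0.15 (95% interval -0.37 to 0.08, edgeR adjusted p = 0.137). Leaving out vehicle replicate 3 made it a call (log2 fold change -0.23, edgeR adjusted p = 0.0144), and so did total counts alone (log2 fold change -0.56, edgeR adjusted p = 0.000154). In KO the medians were 85.2 CPM (74.5 to 124) and 89.7 (79.9 to 109.8), a log2 fold change of 0.03 (95% interval -0.28 to 0.34), and under total counts alone -0.34 (edgeR adjusted p = 0.0125). Scaling by total counts alone shifted the median of all genes in the LPS comparison by -0.41 in WT and -0.38 in KO on the log2 scale. Relative to that shift the 5 members with larger changes kept their direction under total counts alone.

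**Figure D2:**
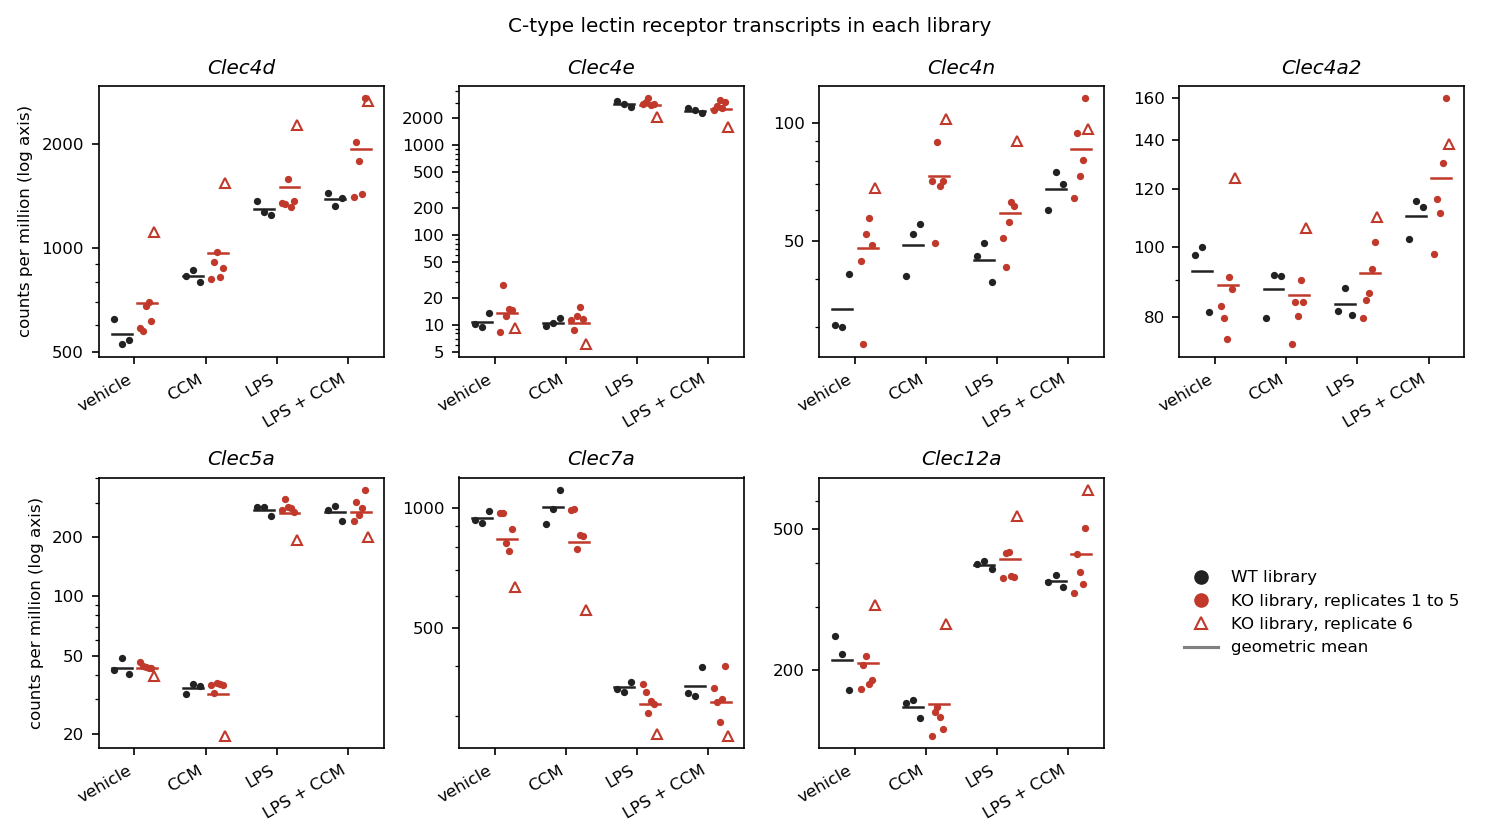
Level of each of the 7 genes in every library (CPM, log axis, a different range in each panel) by treatment, with WT libraries in black, KO libraries in red, KO replicate 6 as an open triangle and the geometric mean of each group as a line. All libraries with LPS lie above all libraries without it for Clec4e and Clec5a, and Clec7a falls with LPS. The geometric means of Clec4n and Clec4d are higher with CCM both without and with LPS. The groups overlap except in WT under LPS for Clec4n and in WT without LPS for Clec4d. The differences with CCM without LPS were not tested.

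The effect of CCM in stimulated cells was read by comparing LPS with CCM against LPS. In WT 3 of the 7 members were called, Clec4n and Clec4a2 higher and Clec4e lower, where 11.9% of 13579 genes were called, 4.15% higher and 7.78% lower. The groups did not overlap for these 3 and Clec12a, 4 of the 7, and for 30.5% of all genes. In KO 0 of the 7 were called by edgeR and 0 by DESeq2, where edgeR called 0.112% of 13386 genes. An unadjusted edgeR p under 0.05 was found for 2 members (Clec4n and Clec4a2) and for 1070 of the 13386 genes. With replicate number as a block Clec4n and Clec4a2 were called in KO (edgeR adjusted p = 0.047 and 0.012), where 777 of 13386 genes were called. Same-numbered libraries did not all deviate together there. The LPS libraries are shared with the LPS comparison above.

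Clec4n, which signals through FcRγ, showed the largest difference with CCM. In WT it stood at 45.9, 49.3 and 39.2 CPM with LPS and at 59.9, 74.9 and 69.8 with LPS and CCM, a log2 fold change of 0.61 ± 0.098 (edgeR adjusted p = 0.00274). Each library with CCM lay above each library without it. In KO the lowest, median and highest libraries went from 42.9, 58.7 and 90.4 CPM to 64.2, 87.6 and 116, a log2 fold change of 0.51 (95% interval 0.09 to 0.93, edgeR adjusted p = 0.458). The KO groups overlapped, and 6 of 6 same-numbered pairs were higher, by 0.10 to 1.14 on the log2 scale. Without KO replicate 6, which had the smallest of these ratios, the log2 fold change was 0.64 (edgeR adjusted p = 0.076), and it fell to 0.40 (edgeR adjusted p = 0.997) without replicate 2.

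Clec4a2, which carries an ITIM, was at 81.7, 87.8 and 80.6 CPM with LPS in WT and at 102, 115 and 113 with CCM as well, a log2 fold change of 0.41 ± 0.060 (edgeR adjusted p = 0.00173), and the groups did not overlap. In KO the lowest, median and highest values were 79.9, 89.7 and 109.8 CPM without and 97.7, 123 and 160.0 with CCM. The log2 fold change of 0.42 in KO (95% interval 0.12 to 0.72, edgeR adjusted p = 0.341) was positive in 6 of 6 pairs, and ranged from 0.37 to 0.46 over the alternatives, with the highest value without replicate 6 (edgeR adjusted p = 0.11). Fitted together with all 36 libraries, neither Clec4n nor Clec4a2 was called in WT (edgeR adjusted p = 0.826 and 0.712), and Clec4a2 was called in KO (edgeR adjusted p = 0.0406).

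Clec4e, at its induced level, was lower with CCM in WT, at 2596, 2463 and 2269 CPM against 3122, 2877 and 2668, a log2 fold change of -0.24 ± 0.066 (edgeR adjusted p = 0.0403). All 3 pairs were lower, by 0.22 to 0.27, and the groups did not overlap. The call was lost when LPS replicate 1 or 2 or LPS with CCM replicate 2 or 3 was left out (edgeR adjusted p of 0.109 to 0.126). It was also lost with total counts alone (0.115) and with all 36 libraries in 1 fit. In KO the medians were 2912 CPM (2065 to 3348) and 2686 (1622 to 3219), a log2 fold change of -0.14 (95% interval -0.51 to 0.23, edgeR adjusted p = 0.867), with 1 of 6 pairs higher.

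Clec4d did not pass the test under LPS. Its WT libraries had 1369.8, 1275 and 1249 CPM with LPS and 1444, 1321 and 1396 with CCM as well, a log2 fold change of 0.10 (95% interval -0.05 to 0.24, edgeR adjusted p = 0.277). All 3 pairs were higher, by 0.05 to 0.16. Deviations of same-numbered libraries from their group means correlated at 0.151 to 0.36 here, in 3 pairs. With replicate number as a blocking term 5 of the 7 members were called, where 3220 of 13579 genes were called. Clec4d (edgeR adjusted p = 0.0217) and Clec12a (edgeR adjusted p = 0.00238) were the additional ones. In KO the lowest, median and highest Clec4d went from 1310.2, 1359 and 2261 CPM to 1403, 1899.7 and 2706, a log2 fold change of 0.36 (95% interval -0.10 to 0.82, edgeR adjusted p = 0.73), which was 0.43 without replicate 6 (edgeR adjusted p = 0.224) and 0.23 without replicate 5 (edgeR adjusted p = 0.999). The ratios of the 6 pairs spread from 0.05 in replicate 1 to 0.98 in replicate 5. Clec12a in WT was at 355, 371 and 343 CPM against 398, 405 and 385, a log2 fold change of -0.15 ± 0.045 (edgeR adjusted p = 0.0569) with all 3 pairs lower, and in KO the log2 fold change was 0.05 (95% interval -0.34 to 0.45). Clec5a (log2 fold change -0.03 in WT, 95% interval -0.22 to 0.16) and Clec7a (0.02, 95% interval -0.16 to 0.20) were close to their LPS levels, and in KO both lay within 0.01 of 0 with intervals of -0.33 to 0.32 and -0.25 to 0.26. The neutrophil marker sum was 1004 to 1155 CPM with LPS and CCM in WT, below 1196 to 1222 with LPS, and 1019 to 2209 in KO, where LPS alone gave 1120.2 to 2458. The monocyte marker sum was lower with CCM in 3 of 3 WT pairs (451 to 610 CPM against 512 to 634) and 6 of 6 KO pairs (416 to 719.7 against 475 to 916). Dendritic cell markers were lower in 3 of 3 and 5 of 6 pairs, at sums of at most 15.8 CPM, and fibroblast markers in 2 of 3 and 5 of 6. The part of these cell types in the differences was not tested.

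**Figure D3:**
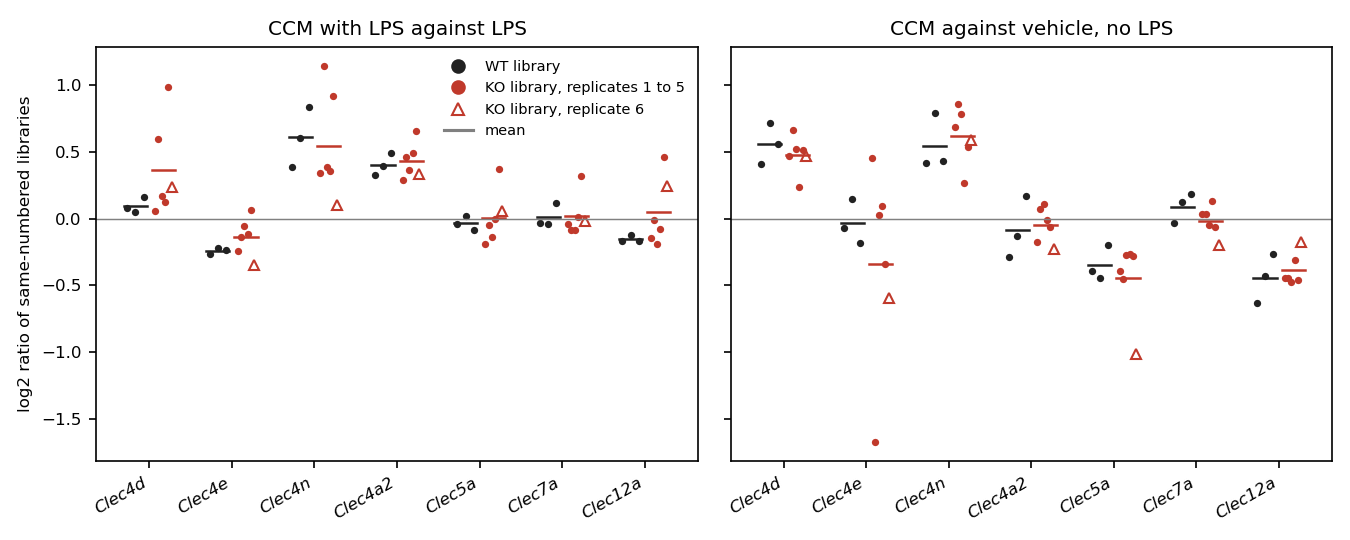
Log2 ratio of CPM between same-numbered libraries for each of the 7 genes, with CCM against without, under LPS (left) and without LPS (right), for 3 WT pairs (black) and 6 KO pairs (red, replicate 6 as an open triangle), with lines at the means. Clec4n and Clec4d lie above 0 in every pair of both panels, Clec4a2 in every pair under LPS, and Clec5a and Clec12a below 0 in every pair without LPS.

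Without LPS, CCM against vehicle is the contrast behind the choice of the members, so its values are a description with no test. Of all genes tested, 0.057% of 14024 were called in WT and 0% of 13799 in KO. Clec4d was at 829, 862 and 797 CPM with CCM in WT against 625, 527 and 542 with vehicle, and in KO at a median of 894 (815 to 1544) against 647 (577 to 1115). Its fitted log2 difference was 0.54 in WT and 0.48 in KO, with 3 of 3 and 6 of 6 pairs higher. Clec4n was at 40.7, 52.1 and 55.3 CPM with CCM in WT against 30.5, 30.1 and 41.0, and at a median of 71.2 (49.3 to 102) against 50.5 (27.1 to 68.3) in KO. Its log2 differences were 0.52 and 0.61, again with every pair higher. Clec5a and Clec12a lay on the other side. Clec5a had 32.01, 35.6 and 35.1 CPM with CCM in WT and a median of 35.4 (19.5 to 36.3) in KO, with log2 differences of -0.36 and -0.42, and Clec12a had 161, 164 and 146 CPM and a median of 149.8 (130.1 to 269), with log2 differences of -0.47 and -0.36. Both were lower in 3 of 3 and 6 of 6 pairs. Clec4a2 (-0.10 and -0.06), Clec7a (0.08 and -0.01) and Clec4e (-0.07 and -0.39) did not move the same way in all pairs. Clec4e had 9.63, 10.3 and 11.8 CPM with CCM in WT, and its KO value turned on vehicle replicate 2 at 27.9 CPM. The neutrophil marker sum was 519 to 811 CPM with CCM against 766 to 827 with vehicle in WT, lower in 2 of 3 pairs, and 547 to 1323 against 685 to 1298 in KO, lower in 5 of 6. Fibroblast markers were lower with CCM in 3 of 3 WT pairs (326 to 794 CPM against 476 to 1351) and 5 of 6 KO pairs (295 to 1152 against 507 to 1377), as were monocyte markers (369 to 620.1 against 455 to 826, and 311 to 817 against 396 to 854). Dendritic cell markers were lower in 3 of 3 and 6 of 6 pairs, at sums of at most 6.94 CPM. Their part in these values was not tested.

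KO and WT were compared with vehicle and under LPS, in libraries that the treatment comparisons also used. 0 of the 7 members were called in either comparison by edgeR and 0 by DESeq2, and 0 had an unadjusted p under 0.05. Over all genes 0% of 14385 (vehicle) and 0% of 13794 (LPS) were called by edgeR, with 118 and 105 genes at an unadjusted p under 0.05, and DESeq2 called 1 in each. The largest difference was that of Clec4n, at 27.1, 50.5 and 68.3 CPM (lowest, median, highest) in KO with vehicle against 30.1 to 41.0 in WT, a log2 fold change of 0.57 (95% interval -0.06 to 1.197, edgeR adjusted p of 1). Under LPS it was 0.44 (95% interval -0.07 to 0.95), and without KO replicate 6 the values were 0.44 and 0.29. Clec4d differed by 0.36 with vehicle (95% interval -0.17 to 0.88) and 0.24 under LPS (-0.19 to 0.67), and by 0.17 and 0.10 without KO replicate 6. Clec4e differed by 0.41 with vehicle (95% interval -0.42 to 1.25) and -0.02 under LPS (-0.36 to 0.32), and the vehicle value was 0.13 without KO replicate 2 and 0.60 without WT replicate 3. Clec7a differed by -0.15 (-0.47 to 0.17) and -0.14 (-0.39 to 0.11). For Clec4a2, Clec5a and Clec12a the differences were -0.03, 0.01 and 0.00 with vehicle and 0.15, -0.03 and 0.07 under LPS. Without KO replicate 6 they were -0.15, 0.02 and -0.15 with vehicle and 0.10, 0.05 and -0.02 under LPS. For Clec4n and Clec4d these intervals include differences as large as those seen with CCM.

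Whether a response differed between genotypes was tested as an interaction. For LPS 0 of the 7 members were called by edgeR and 0 by DESeq2, and for CCM under LPS likewise, with 0 at an unadjusted p under 0.05 and 0% of 15093 and 14546 genes called. Over all genes 112 and 72 had an unadjusted edgeR p under 0.05. The estimates for LPS ran from -0.42 for Clec4e (95% interval -1.25 to 0.41) to 0.20 for Clec4a2 (-0.25 to 0.66). That of Clec4e was -0.15 without KO replicate 2 and -0.65 without WT replicate 3. Clec4d was at -0.09 (-0.72 to 0.55), Clec4n at -0.10 (-0.85 to 0.64), Clec5a at -0.02 (-0.36 to 0.33), Clec7a at 0.03 (-0.34 to 0.40) and Clec12a at 0.10 (-0.44 to 0.64). For CCM under LPS they were 0.28 for Clec4d (-0.38 to 0.94), 0.12 for Clec4e (-0.40 to 0.64), -0.08 for Clec4n (-0.71 to 0.55), 0.03 for Clec4a2 (-0.40 to 0.47), 0.04 for Clec5a (-0.42 to 0.51), 0.00 for Clec7a (-0.37 to 0.38) and 0.22 for Clec12a (-0.34 to 0.79). Calls in WT and not in KO are therefore not shown to be a difference between genotypes.

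The genes around the receptors were followed as 4 lists. With LPS in WT, 13 of 17 adaptors and proximal kinases were called higher and 3 lower, with a median log2 fold change of 1.17 beside -0.05 over all genes, of which 30.6% were called higher and 32.4% lower. Fcer1g, the adaptor of Clec4e, Clec4d and Clec4n, went from 555 ± 61.3 to 1245 ± 17.2 CPM, and Syk from 313 ± 7.55 to 1594 ± 82.4 (SD, n = 3 here and below). Src, a kinase that phosphorylates ITAMs, had the largest change (19.0 ± 4.11 to 319 ± 15.3) of those named, and the adaptor Lcp2 went from 43.2 ± 1.60 to 435 ± 12.2. Tyrobp, the adaptor of Clec5a, fell from 923 ± 114 to 617 ± 10.7 CPM (edgeR adjusted p = 0.000142). It and Fcer1g lie outside the rule for naming genes and are given as adaptors of the members, after their values were seen. Of 20 genes of the CARD9 complex and downstream, 12 were called higher and 6 lower, with a median of 0.40. Malt1 rose most of those named, from 74.3 ± 5.20 to 956 ± 85.0 CPM, with the NF-κB subunits Relb (23.6 ± 2.40 to 160 ± 8.83) and Nfkb1 (114 ± 2.20 to 709.8 ± 12.6), while Nfatc2 fell from 33.3 ± 2.04 to 5.24 ± 1.35. The inhibitory phosphatases and regulators split 6 higher to 4 lower of 10, with a median of 0.36. Among them Ptpn6 rose from 229 ± 15.3 to 660.2 ± 24.0 CPM and Ptpn11 from 118 ± 10.1 to 194 ± 1.74, and Inpp5d (the lipid phosphatase SHIP-1) fell from 254 ± 3.61 to 118 ± 5.05 and Dok2 from 60.6 ± 2.32 to 38.6 ± 6.47. Of 41 other C-type lectin receptors 25 passed the filter on low counts, and 9 were called higher and 12 lower, with a median of -0.61. Cd69, an early activation marker, rose from 0.704 ± 0.308 to 217 ± 15.5 CPM, Olr1 (a receptor for oxidised lipoprotein) from 0.705 ± 0.115 to 25.7 ± 3.30 and Klrk1 (NKG2D) from 0.511 ± 0.366 to 7.20 ± 1.27, and Clec1a fell from 5.27 ± 0.657 to 0.259 ± 0.238. In KO the 4 lists gave, in the same order, 10 higher and 2 lower of 17, 9 and 5 of 19, 3 and 2 of 10, and 10 and 12 of 24, beside 22.4% higher and 24.7% lower over all genes.

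Fewer of these genes were called for CCM under LPS, and most of those called in WT were lower, as they were over all genes (4.15% called higher and 7.78% lower). Of the adaptors and kinases 1 was called higher (Plcg1, 9.83 ± 0.985 to 13.3 ± 0.886 CPM) and 4 lower, among them Pik3ap1 (959.6 ± 20.9 to 805 ± 27.1), Lcp2 (435 ± 12.2 to 366 ± 17.2) and Fcer1g (1245 ± 17.2 to 1103 ± 21.04, edgeR adjusted p = 0.0181). Of the CARD9 list Card9 itself was called higher (40.3 ± 1.27 to 46.1 ± 1.37 CPM, edgeR adjusted p = 0.0495). Card9 was outside the naming rule here and is named after its values were seen. The 4 called lower were Egr1 (16.03 ± 2.43 to 8.74 ± 0.491), Rel (138 ± 9.92 to 104 ± 8.29), Malt1 (956 ± 85.0 to 763 ± 68.4) and Nfkb1 (709.8 ± 12.6 to 582 ± 37.4). Of the other receptors 0 were called higher and 3 lower of 21 tested, Cd69 (217 ± 15.5 to 88.6 ± 13.04 CPM, log2 fold change -1.29, edgeR adjusted p = 4.63e-05), Klrk1 (7.20 ± 1.27 to 3.56 ± 0.265) and Clec1b (5.38 ± 0.641 to 3.13 ± 0.865), whose interval overlaps that of Clec9a. Inpp5d was the 1 of 10 inhibitory genes called, and it was higher (118 ± 5.05 to 143 ± 8.63). The medians of the 4 lists were -0.04, -0.08, -0.12 and 0.01 in that order, beside 0.01 over all genes. Of all 4 lists Cd69 alone was called in KO, with 206 ± 42.6 CPM under LPS and 97.8 ± 17.1 with CCM as well (SD, n = 6, log2 fold change -1.10, edgeR adjusted p = 0.0179). Between genotypes and in both interactions 0 genes of these lists were called.

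**Figure D4:**
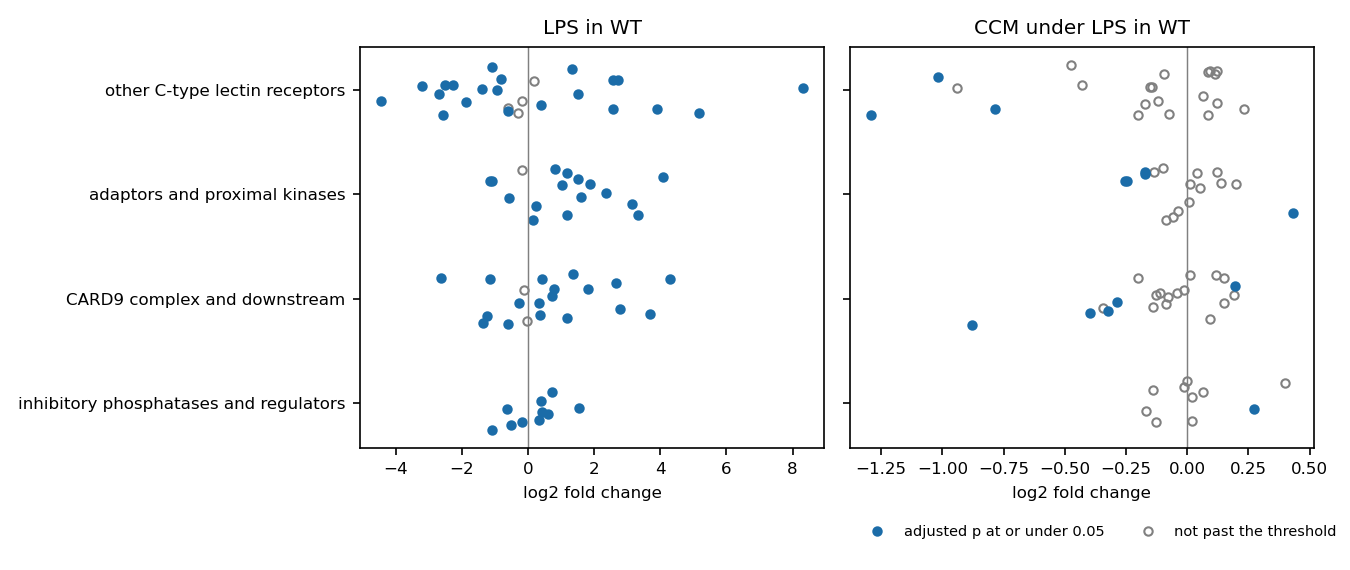
Log2 fold change (horizontal axis, a different range in each panel) of each tested gene of the 4 lists (rows, with points spread vertically for legibility) for LPS against vehicle (left) and for CCM with LPS against LPS (right) in WT, n = 3 per group. Filled points passed an edgeR adjusted p of 0.05. In the right panel the 3 filled points of other receptors lie below 0, as do 4 of 5 in the adaptor row and 4 of 5 in the CARD9 row.

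Across the 36 libraries, the genes whose log2 CPM followed each member most closely were listed among 11177 genes with a mean log2 CPM of at least 1. All 36 points share the LPS contrast and KO replicate 6, so the correlations are descriptions. For Clec4d they were Pgd (Pearson r = 0.978), which encodes an enzyme of the pentose phosphate pathway, Ninj1 (0.973) and Fth1, the ferritin heavy chain (0.971). Clec4e was followed by Gbp2 (0.998), Fpr2 (0.997) and Acod1, the itaconate-producing enzyme (0.997), and Clec5a by Pid1 (0.993), Gbp3 (0.993) and the scavenger receptor Msr1 (0.993). For Clec4n the values were lower, with the peroxiredoxin Prdx6 (0.821), Odc1 (0.814) and Atf5 (0.787), and for Clec4a2 they were Lrrc42 (0.862), Tpi1 (0.859) and Dynll1 (0.857). Clec7a was followed by Pde3b (0.983), Daglb (0.983) and Snx5 (0.981), and Clec12a by Slamf9 (0.974), Tpm3 (0.973) and Fdft1 (0.971). Among the members, Clec4e and Clec5a ran together (r = 0.99) and Clec7a against both (-0.95 and -0.92), while Clec4n was nearer to Clec4d (0.711) than to Clec4e (0.293).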

How the data were processed

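BMDM RNA was sequenced in 36 libraries (8 groups). Per the labels and the study's methods, RNA was enriched with poly(T) beads, and reads were trimmed with fastp, aligned to mm10 with HISAT2 2.0.5 and counted with featureCounts 1.5.0-p3. The values deposited by the authors are raw counts per gene, as whole numbers, and all 36 count columns were used. The strand setting is not stated in the sources used here, so counts of genes that overlap another gene are uncertain. Among the members this is Clec4a2, and among the list genes named it is 7 (Lcp2, Nfkb1, Ptpn6, Ptpn11, Dok2, Clec1b and Plcg1).

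Fits used the libraries of the groups compared, with edgeR 4.0.16 in R 4.3.3 (filterByExpr, TMM, glmQLFit and glmQLFTest, no block, two-sided, Benjamini-Hochberg adjustment over all tested genes at 0.05). CPM and RPKM were computed from the counts with TMM factors over the 36 libraries and the gene length of the table, and log2 CPM used a prior count of 2. Confidence intervals are 95%, from the standard error and the residual degrees of freedom of the libraries. The scripts were tested on simulated data. The alternatives were DESeq2 1.42.0, RLE factors, total counts alone, no filter beyond 1 count, all 36 libraries in 1 fit, the replicate number as a block, and leaving out each library or, where KO libraries or both genotypes were in a treatment comparison, each replicate number.

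The members and lists were chosen with earlier results of these data known. All 7 members are named in every comparison. For each of the 4 lists up to 4 called genes with the largest change and an average log2 CPM of at least 1 are named for LPS in WT and for CCM under LPS in WT, and for each member the 3 genes with the highest Pearson r. Values of 1 list gene that this rule names are left out. RefSeq promoters of GRCm38.p6 and the GENCODE annotation of GRCm38 were read by gene symbol and identifier.

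Libraries of a group differed by more than counting noise (the lowest chi-square per degree of freedom was 4.08), and nothing in the labels says that a number marks one animal, so p-values measure the spread between these libraries, which may in part be technical. Deviations of same-numbered libraries from their group means correlated at 0.299 to 0.829 for LPS in KO and at 0.151 to 0.36 for CCM under LPS in WT. In these comparisons all were over 0.1. For LPS in WT (0.0473 to 0.174) and CCM under LPS in KO (-0.1 to 0.808) they were not all over 0.1. The fit with a block was run as an alternative for every treatment comparison and interaction.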

Additional observations from a re-analysis of the deposited data

Results flagged for a closer look

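In the KO groups of 6 libraries, Dixon's test was run on each member, 28 tests in all, of which chance gives about 1 in 20. The tests share libraries and replicate numbers, so they are not independent and their count cannot be set against that rate. In 10 tests a library was marked as far from the others. KO replicate 6 was that library in 9 of them. It was the highest for Clec4d with vehicle (1115 CPM), CCM (1544 CPM) and LPS (2261 CPM), for Clec4a2 with vehicle (124 CPM), and for Clec12a with vehicle (305 CPM), CCM (269 CPM) and LPS (545 CPM). It was the lowest for Clec5a with CCM (19.5 CPM) and LPS (193 CPM). The tenth was Clec4e in KO replicate 2 with vehicle, at 27.9 CPM, where the next highest library had 14.9. Under LPS with CCM no member was marked. The neutrophil marker sum (in all treatments but vehicle) and Elane and Mpo were also at the upper end in KO replicate 6. Ltf, Ngp, Mmp8 and Cxcr2 of the same list were not. The part of these markers in the flagged values was not tested.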

How the results depend on the processing

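Of the calls in the 4 treatment comparisons, those of Clec4d, Clec4e, Clec5a, Clec7a and Clec12a with LPS kept their direction and their side of the threshold in both genotypes under every alternative run. With CCM under LPS in WT, those of Clec4n and Clec4a2 did so under all but the fit of all 36 libraries. The number of members called for CCM under LPS in WT was 3, and it was 0 with all 36 libraries in 1 fit and 5 with the replicate block. In KO it was 0, and it was 1 with all 36 libraries (Clec4a2) and 2 with the replicate block (Clec4a2, edgeR adjusted p = 0.012, and Clec4n, 0.047), where same-numbered libraries did not all deviate together. Over all genes the block called 3220 in place of 1621 in WT, 777 in place of 15 in KO and, for LPS in KO, 9774 in place of 6433. All 36 libraries in 1 fit called 17, 285 and, for LPS in WT, 5644 in place of 9139, and DESeq2 called 180 for CCM under LPS in KO. Leaving out KO replicate 6 gave 170, and leaving out KO replicates 1 to 5 gave 0, 0, 7, 2 and 4. In WT the count of 1621 was 958 without LPS replicate 2 and 893 without LPS with CCM replicate 2. Clec12a under CCM and LPS in WT became a call with DESeq2 (adjusted p = 0.0358) and RLE factors (0.0481), and Clec4d with total counts alone (0.0365). For LPS in WT, Clec4n lost its call with all 36 libraries (0.263), and Clec4a2 gained one with total counts alone (log2 fold change -0.56, adjusted p = 0.000154). The cause was not tested.

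Values near 0 changed sign. With total counts alone the log2 fold change for LPS became -0.011 for Clec4n in WT, and -0.11 for Clec4n and -0.34 for Clec4a2 in KO. For Clec5a with CCM under LPS it became 0.047 in WT and 0.022 in KO, and 0.013 in KO with all 36 libraries. Clec7a in KO was -0.00072 with the block. For KO against WT with vehicle, Clec5a became -0.055 with total counts, -0.0094 with all 36 libraries and -0.018 with no filter, and Clec12a 0.0033 with DESeq2 and 0.014 with RLE factors. The genotype by LPS value of Clec5a became 0.0064 with no filter. In the genotype by CCM test, total counts gave -0.035 for Clec4a2, -0.025 for Clec5a and -0.063 for Clec7a, and Clec7a was -0.012 with DESeq2 and -0.011 with RLE factors.

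Leaving out 1 library or number in turn, uncalled values ranged across 0. For CCM under LPS they were -0.022 to 0.10 (Clec12a), -0.086 to 0.031 (Clec5a) and -0.059 to 0.028 (Clec7a) in KO, and -0.090 to 0.035 (Clec5a) and -0.064 to 0.060 (Clec7a) in WT. For LPS in KO, Clec4a2 ran from -0.0082 to 0.083. For KO against WT the ranges were -0.15 to 0.13 (Clec12a), -0.15 to 0.027 (Clec4a2) and -0.044 to 0.086 (Clec5a) with vehicle and -0.018 to 0.11 (Clec12a), -0.074 to 0.057 (Clec4e) and -0.077 to 0.051 (Clec5a) under LPS. Genotype by LPS gave -0.018 to 0.21 (Clec12a), -0.35 to 0.044 (Clec4n), -0.079 to 0.029 (Clec5a) and -0.012 to 0.056 (Clec7a). Genotype by CCM gave -0.018 to 0.073 (Clec4a2), -0.19 to 0.046 (Clec4n), -0.039 to 0.075 (Clec5a) and -0.063 to 0.055 (Clec7a).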
